A study of Mus musculus with 2 samples.

Results

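The most used splice junctions of the mouse thymus are the 573 introns that were each crossed by at least 5000 reads and that span more than 100 and fewer than 100000 bases. They were chosen from 532115 junctions listed on mm9 and make up 0.108% of that list. The list comes from polyadenylated RNA longer than 200 nucleotides, prepared from thymus tissue of C57BL/6J littermates aged 8 weeks and sequenced as paired 76-base reads in 2 stranded libraries, biological replicates 2 and 1 of a single group. Males and females were pooled, both libraries name the same donor entry, and neither a treatment nor a genetic change is given. Each junction carries 2 read counts, entered as R2 and R1, which sum to its total and which no label ties to a library. They are treated here as 2 replicate counts, so an SD over them rests on 1 difference and may be technical in part. Because the read total itself chose the members, their counts are described and not tested.

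A splice junction read is a read that runs from the end of one exon into the start of the next, and so shows that the intron between them has been removed. The end of an intron next to the upstream exon is its 5′ splice site or donor, and the other end is its 3′ splice site or acceptor. Donors and acceptors that pair in more than one way give alternative splicing, in which an exon is skipped or an exon boundary is moved. The thymus is where T cell precursors mature, and the organ holds thymocytes together with epithelial, myeloid, blood and fat cells. In whole tissue, fewer cells of a type cannot be told apart from less RNA per cell.

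The junctions were placed in genes by structure: an intron was named only where its length, and the length of at least 1 neighbouring intron with the exon between them, matched the same gene of GENCODE M21 on the same chromosome and strand. This named 551 members in 273 genes, of which 269 were protein-coding and the others were the constant genes Trbc1, Trbc2, Trac and Ighm. In 11 of the 551 an overlapping gene shared the intron. Another 4 lay in the alpha-globin genes Hba-a1 and Hba-a2, whose structures could not be told apart, and 18 were not named this way.

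The exon ends that the leading junctions join, read from the GENCODE M21 transcripts (GRCm38), are shown first because they are what the reads cross. Lower case is the upstream exon and capitals are the downstream exon, on the strand of the gene, with 15 bases from each. Rack1, a ribosome-bound scaffold protein, gave the most read member within a coding sequence (chr11:48614075-48615164 on mm9, plus strand). Rplp1 (chr9:61761770-61762163, minus strand) encodes an acidic protein of the ribosomal stalk, and Rac2 (chr15:78396462-78401161, minus strand) a small GTPase of blood cells.
Rack1 exon 1 to exon 2: tgtctgcgtctcgagACAAGACCATCATCA
Rplp1 exon 1 to exon 2: gaggtgacggtcacgGAGGATAAGATCAAT
Rac2 exon 2 to exon 3: atacatccccactgtATTTGACAACTACTC

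The next joins are shown because they end at a site that 2 members use. Tcf7 encodes the T cell transcription factor TCF-1, Cd8a the alpha chain of the CD8 co-receptor, and Cfd the serine protease complement factor D, also known as adipsin. In Tcf7 (chr11, minus strand) exon 4 was joined to exon 5 (chr11:52072448-52074032) or directly to exon 6 (chr11:52071306-52074032). In Cd8a (chr6, plus strand) exon 3 was joined to exon 4 (chr6:71324864-71325881) or directly to exon 5 (chr6:71324864-71326853). In Cfd (chr10, plus strand) the acceptors of exon 2 lay 3 bases apart, at the ends of chr10:79353726-79354203 and chr10:79353726-79354200, and the capitals of the longer exon begin with those extra bases.
Tcf7 exon 4 to exon 5: ccatactgtgagctgGCCCAGTCCTCCTCT
Tcf7 exon 4 to exon 6: ccatactgtgagctgGTTCACCCACCCATC
Cd8a exon 3 to exon 4: tcatctgctaccacaGGAGCCGAAAGCGTG
Cd8a exon 3 to exon 5: tcatctgctaccacaGCCGCTAGTCAGACA
Cfd exon 1 to shorter exon 2: gagcggctgtatgtgCACAGCCCCGAGGCC
Cfd exon 1 to longer exon 2: gagcggctgtatgtgCAGCACAGCCCCGAG

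Another set is shown because the sequence on one or both sides of the join is the same in neighbouring gene copies. Trbc2 (chr6:41497104-41497608, plus strand) and Trbc1 (chr6:41488592-41489112) are the constant genes of the T cell receptor beta chain. Hba-a1 and Hba-a2 (chr11:32184129-32184262 and chr11:32196946-32197079, plus strand) encode alpha-globin. Hbb-bs (chr7:110975308-110975961, minus strand) and Hbb-bt (chr7:110961299-110961952) encode beta-globin. The 15 bases before the Trbc join were the same in both genes, and the last 115 bases of their first exon were identical. Exon 2 of Hba-a1 and Hba-a2, of 205 bases, was identical throughout, as was exon 2 of Hbb-bs and Hbb-bt, of 223 bases, so the joins below stand for both copies. The exons of the alpha-tubulin genes Tuba1a (chr15:98781768-98781899, minus strand) and Tuba1b (chr15:98763272-98763403) shared the first 37 bases after the join.
Trbc2 exon 1 to exon 2: cctggggccgagcagACTGTGGAATCACTT
Trbc1 exon 1 to exon 2: cctggggccgagcagACTGTGGGATTACCT
Hba-a1 or Hba-a2 exon 2 to exon 3: cccgtcaacttcaagCTCCTGAGCCACTGC
Hbb-bs or Hbb-bt exon 2 to exon 3: cctgagaacttcaggCTCCTGGGCAATATG
Tuba1a or Tuba1b exon 2 to exon 3: aacccacggtcatcgATGAAGTTCGCACCG

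The members held 16.1% of all junction reads in R2 and 15.7% in R1, a mean of 15.9% ± 0.253 (SD, n = 2), against 0.108% of the listed junctions. That is 6204443 of 38942671 reads. Counts among them ran from 5000 to 110033 reads with a median of 7652, while the median over the whole list was 2 reads. Of the 573, 178 had at least 10000 reads, 55 at least 20000 and 8 at least 50000. The lowest members had 5000, 5006 and 5015 reads, and the nearest junctions below the limit had 4999, 4998 and 4998. The span limits left out 95 junctions of at least 5000 reads with 100 bases or fewer, among them an 87-base intron of Actb with 47540 reads in R2 and 64013 in R1, and 1 junction over the upper limit. The authors' reproducibility value, which ran from 0 to 0.82 with its median at the upper end, was 0 in all 573 members, and lower values are the more reproducible. How many other well-read junctions also had 0 was not counted, so this is no trait particular to the members. Members lay on 20 chromosomes, and per 1000 listed junctions they were most frequent on chromosomes 10 (2.50, 66 members), 7 (2.19, 89 members) and 15 (1.74, 43 members).

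The 20 most read members came from 13 named genes or gene pairs and held 16.3% of the member reads. Intron 1 of Actb, which encodes cytoplasmic beta-actin, led the list with 47032 reads in R2 and 63001 in R1, followed by intron 1 of Rack1 with 60242 in R2 and 47539 in R1. Intron 1 of Thy1, which encodes a surface glycoprotein of thymocytes, had 38178 and 35700, and intron 3 of Actb had 31741 and 37437 in R2 and R1. At these introns Actb thus had the lower count in R2, whereas Rack1 and Thy1 were higher in R2. Intron 5 of Actb, also a member, was slightly higher in R2, with 16058 reads in R2 and 15670 in R1. Introns 4 and 2 of Cd74, the invariant chain that escorts class II molecules in antigen-presenting cells, had 36406 and 33707 reads in R2 and 22173 and 21882 in R1. The first intron of Rplp1 had 34412 reads in R2 and 23372 in R1, and intron 2 of Rac2 had 28091 in R2 and 22295 in R1. The rest of the first 20 lay in the alpha-globin genes, Atp5b (a subunit of the mitochondrial ATP synthase), Tcf7, Trbc2, Hspa8 (a constitutive chaperone), Laptm5 (a lysosomal protein of blood cells), Rpl13a and Actb, with no fewer than 31728 reads each.

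The class of T cell signalling and surface proteins was the largest named class by members and by reads. It was assigned by hand and also holds genes used in other blood cells. Laptm5, with 7 members, was counted here and not with the lysosomal proteins. Its genes numbered 27, with 94 members and 14.96% of the member reads, and the receptor and CD3 class added 5 genes with 10 members and 2.49%. Lat, the adaptor that links the receptor to downstream enzymes, had 5 members, of which intron 2 was highest with 15666 reads in R2 and 12235 in R1. Lck, the kinase that phosphorylates the receptor chains, had 5846 and 4491 reads at its most read member, intron 6, in R2 and R1. Arhgef1, a guanine nucleotide exchange factor, had 12 members, the most of any gene, and Arhgap45 had 9. Within the receptor class, intron 2 of Trbc2 had 22129 reads in R2 and 14279 in R1, while intron 7 of Cd3e, a CD3 chain, had 3247 in R2 and 2862 in R1. Cd247, which encodes the zeta chain, had 2 members and Trac, the alpha constant gene, had 1.

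Transcription and chromatin genes numbered 22 with 50 members and 7.57% of the member reads. Tcf7 had 9 of these, led by intron 3 with 20301 reads in R2 and 18484 in R1. Hdac7, a histone deacetylase active in thymocytes, had 7, and Aes, a corepressor of the Groucho family, had 6. Lef1, the relative of Tcf7, had 4, and Satb1, a chromatin organiser of thymocytes, had 3. The cytoskeleton class of 26 genes and 48 members held 11.1% of the reads, of which Actb, Rac2 and Coro1a, an actin-binding coronin of leukocytes, had 3, 6 and 7 members.

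Protein synthesis genes formed a ribosomal and a translation factor class. Ribosomal proteins numbered 16 genes with 37 members and 8.36% of the reads, and the median over these members, all chosen for at least 5000 reads, was 10450. Rpl13a, a protein of the large subunit, had 5 members. Translation factors numbered 10 genes with 26 members and 6.48% of the reads, and here Rack1 and Eef2, the elongation factor that moves the ribosome along, had 7 members each. Splicing and RNA-binding genes numbered 20 with 40 members, among them Arpp21, a phosphoprotein made in large amounts in immature T cells and brain, with 6.

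The remaining classes hold genes that most cells use beside genes known from particular cells of the organ. Antigen presentation, with 9 genes and 26 members, had the highest median of any class at 12347 reads. Cd74 had 7 members and H2-Ab1, a class II beta chain, had 5. The class of lysosomal proteins and cathepsins held 12 genes and 29 members, led by Psap, the precursor of the saposins, with 10 members, and by Prss16, a thymus-specific serine protease of cortical epithelium, with 5. Respiratory chain and mitochondrial genes numbered 30 with 47 members, and glycolysis and metabolism 13 with 20. Blood, fat and immunoglobulin genes gave 10 named members, in Cfd, Ighm, Hbb-bs, Hbb-bt and C1qc (a complement subunit of macrophages). By level, the 9 thymocyte markers lay between 44.0 and 669 TPM (transcript molecules scaled for length and to a fixed total) in replicate 2 and between 35.0 and 586 in replicate 1, and 4 of them hosted a member. The 6 epithelial markers lay between 24.7 and 801 TPM in replicate 2 and between 22.7 and 537 in replicate 1, with 1 host, Prss16. Of the B cell list, the host Ighm, the mu heavy chain, had 1019 TPM in replicate 2 and 815 in replicate 1, while Cd79a had 30.2 and 36.8 and Ms4a1 had 1.38 and 1.35. The red cell list of Hba-a1 and Hbb-bs summed to 3150 TPM in replicate 2 and 2459 in replicate 1, and the fat list of Cfd, Adipoq and Ucp1 to 852 and 1209.

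**Figure D1:**
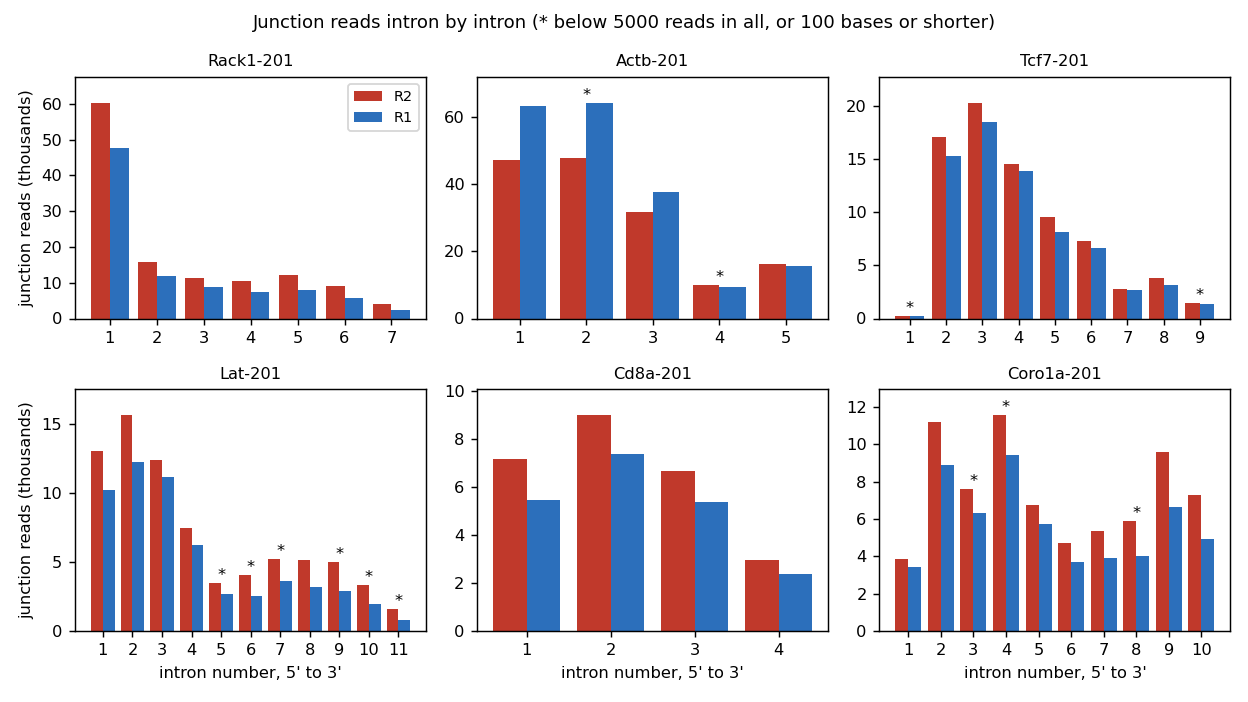
Junction reads (in units of 1000, vertical axis) of every intron of 6 transcripts, numbered from the 5′ end, in entry R2 (red) and R1 (blue), and a star marks an intron that is no member. Reads at Rack1 stood at 60242 in R2 and 47539 in R1 at intron 1 and at 4108 and 2257 at intron 7.

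Annotated introns of one gene mostly differed widely in reads. Junction reads are pooled over all transcripts of a gene, so such differences include the use of different transcripts. Over the annotated introns of a gene that the list held, the most read had a median of 887 times the reads of the least read. Restricted to the introns of the transcript with the highest level among those that carry a member, the ratio had a median of 14.03 over 250 genes, with quartiles of 5.49 and 47.3. In 13 genes it was at most 2, and in 152 it was over 10, while 23 further genes had an intron that the list did not hold. Over all annotated introns the ratio was largest in Actb, Rack1, Laptm5 and Rpl13a, each of which had an annotated intron of 1 or 2 reads beside a leading one. Within the transcript with the highest level, Cst3, the protease inhibitor cystatin C, was the most even with 6661 reads in R2 and 2906 in R1 at intron 2 and 6606 and 2887 at intron 1.

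Individual ladders, drawn in the plot of reads by intron, took several shapes. Rack1 had 60242 reads in R2 and 47539 in R1 at intron 1, against 15868 and 11973 at intron 2 and 4108 and 2257 at intron 7, a 16.9-fold range. Tcf7 had 262 reads in R2 and 260 in R1 at intron 1, peaked at intron 3 and stood at 2786 and 2667 at intron 7. Thy1 had its 38178 and 35700 reads at intron 1 against 3404 and 2540 at intron 2 in R2 and R1. In these 3 genes the peak lay toward the 5′ end. Arpp21 leaned the other way: its introns 1 to 9 had at most 131 reads in R2 and 112 in R1, and intron 16 had 6534 in R2 and 5214 in R1. The annotated transcripts that carry intron 16 held only 16.2% of the Arpp21 TPM in replicate 2 and 19.2% in replicate 1. Coro1a stayed within a narrower range, from 3871 reads in R2 and 3408 in R1 at intron 1 to 11562 and 9451 at intron 4. Across 198 genes with at least 4 introns, the last intron had 0.839 of the reads of the first at the median (log2 of -0.25), and the last was higher in 95 of them. In 20 genes, every intron over 100 bases of the highest carrying transcript was a member, counting genes with at least 3 such introns, among them Rack1, Actb, Cd74, Laptm5, Rac2, Cd8a and Cd8b1, the beta chain of CD8. The number of members per gene was 1 in 160 genes, 2 in 51, 3 in 24 and at least 5 in 26.

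The members were shorter introns than the rest. Their median span was 609 bases, against 1330 bases over a comparison set, the 125425 listed junctions of at least 10 reads and below the members' minimum within the same span limits. Spans under 200 bases made up 21.6% of members (95% exact binomial interval 18.3 to 25.2) and 9.91% of the comparison set (9.74 to 10.1). Such intervals cover counting error only, and introns of a gene are not independent. The median was 1524 bases for junctions of 10 to 99 reads, 1125 for 100 to 999, 753 for 1000 to 4999, 693 for 5000 to 9999, and 523 for 10000 reads and above. It thus fell at each step. The longest members were intron 3 of Lef1 with 69096 bases, the first intron of a Raly transcript with 65720, intron 15 of Arpp21 with 51873, intron 2 of Ptprc, the leukocyte phosphatase CD45, with 48688, and intron 1 of Msn, the membrane linker moesin, with 45621. At 101 bases, the shortest lay in Prkd2, Tcf7, Rnf126, Limd2 and Atp5b.

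**Figure D2:**
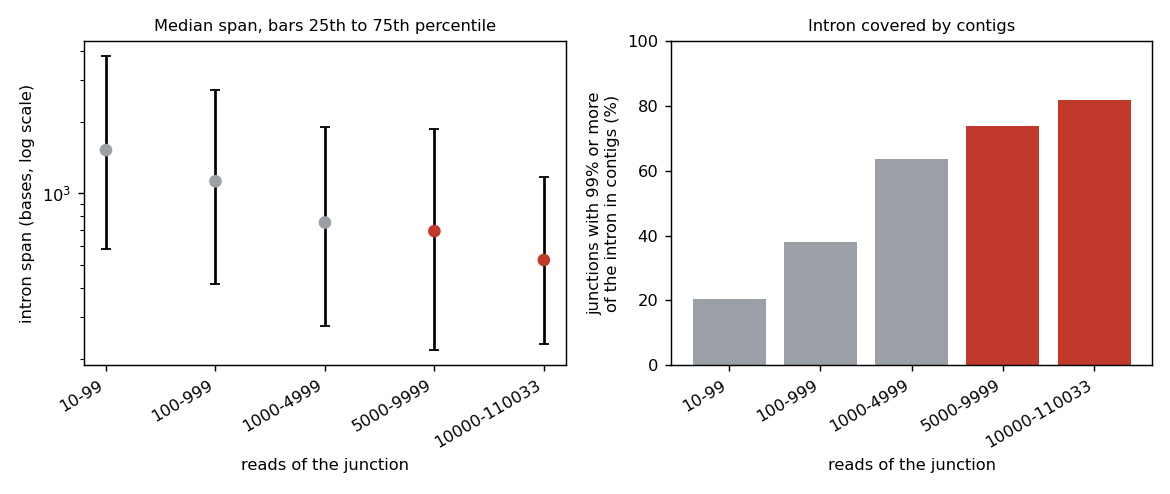
Left, intron span (bases, log scale) of listed junctions in 5 bins of read count, with points at the median and bars from the 25th to the 75th percentile. Right, the share of junctions whose intron lay at least 99% within contigs, where the red bins hold the members. Median span was 523 bases in the highest bin and 1524 in the lowest.

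First introns were more frequent among the members: 21.6% (18.2 to 25.3) of the 551 matched members were the first intron of the transcript, against 11.4% (11.2 to 11.6) of the 106454 matched comparison junctions. Last introns made up 15.1% (12.2 to 18.3) of members and 10.1% (9.90 to 10.3) of the comparison set. Among matched junctions of 1000 to 4999 reads, last introns made up 13.04%, which lies within the members' interval. First introns made up 13.99% of these, which lies below the members' interval. Between coding exons lay 82.0% of members and 86.9% of the comparison set, and in the 5′ untranslated region 7.08% and 5.33%. The upstream exon ended in AG, the bases most often found before a donor, in 48.8% (44.6 to 53.1) of members and in 55.5% (55.2 to 55.8) of the comparison set. The share ending in AG was 56.3% for junctions of 10 to 99 reads, 54.9% for 100 to 999 and 51.5% for 1000 to 4999. It thus fell with read count below the members' minimum as well, and 51.5% lies within the members' interval. The next exon began with G in 45.2% (41.0 to 49.5) of members and in 49.1% (48.8 to 49.4) of the comparison set. The intron side of the splice sites was not analysed here.

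Introns of members lay mostly inside transcribed contigs, which are the stretches of continuous read coverage that the authors listed on the same build and strand. At least 99% of the intron lay in contigs in 76.4% (72.7 to 79.9) of members and in 28.5% (28.2 to 28.7) of the comparison set, and the median covered share was 100% and 77.7%. The first value was 20.4% for junctions of 10 to 99 reads, 37.9% for 100 to 999 and 63.7% for 1000 to 4999. It was 73.9% for 5000 to 9999 and 82.0% for 10000 reads and above. It thus rose with read count below the members' minimum as well, and it was not compared at equal span. A contig lying wholly inside the intron was found in 13.8% of members and 45.3% of the comparison set. Under 10% was covered in 9 members: the 6 alpha-globin junctions, 2 beta-globin junctions and an intron of Tuba1c. In the 134-base Hba intron of 40275 reads, 2.99% was covered, and in the Hbb-bt intron of 7589 reads 1.68%.

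Most members had both of their ends nearly to themselves. In 429 of the 573, at least 99% of all junction reads at the donor and at the acceptor belonged to the member. The median of the lower of both shares was 99.8%. These shares were not computed for the comparison set. Choosing members by high read counts itself favours high shares, so they are no trait particular to the members. Members met a median of 4 other junctions at their ends. These other junctions, 2650 in all beyond the members themselves, had a median of 3 reads, 824 of them had a single read, and 19 had at least 1000. In 45 members the share at an end was below 90%, and in 15 it was below 50%. Of these 45, 23 shared the donor only, 11 the acceptor only and 11 both.

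**Figure D3:**
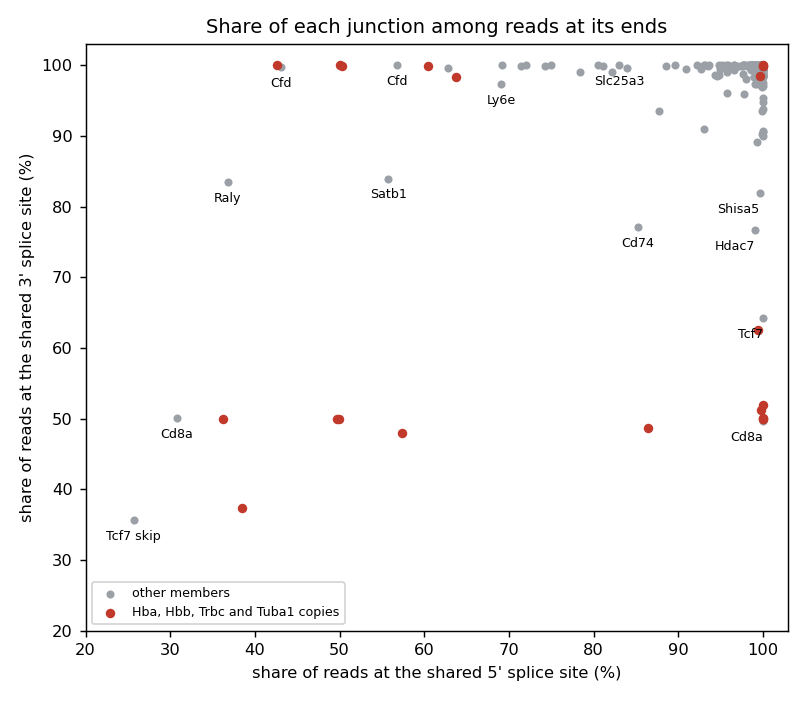
Share of the reads at the 5′ splice site (horizontal, %) against the share at the 3′ splice site (vertical, %) for each of the 573 members, with junctions of the Hba, Hbb, Trbc and Tuba1 copies in red. Most points sit at the upper right corner, and the Tcf7 skip and a Cd8a junction sit at the lower left.

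A first group of shared ends lay in gene copies, where members ran from one copy to its neighbour. A junction of 19429 reads (12130 in R2, 7299 in R1) ran from exon 1 of Trbc1 to exon 2 of Trbc2, beside 32525 reads within Trbc2 and 30526 within Trbc1. The bases on both sides of this join were those printed for Trbc2. It took 38.2% ± 1.57 of the reads listed at the Trbc1 donor (SD, n = 2). In alpha-globin, a junction over 12951 bases had 39740 reads beside 40275 and 39735 within the copies, and one over 12939 bases had 6073 beside 6080 and 6074. All 3 counts were thus nearly equal at each of these introns. In beta-globin the joining junction had 7601 reads, within Hbb-bt 7589 and within Hbb-bs 13351. In tubulin 24381 reads joined Tuba1a to Tuba1b, beside 26369 within Tuba1b and 18106 within Tuba1a, and a further 6152 reads lay at an intron annotated as the read-through gene Gm49450. Where the exons on both sides are identical over the length of a read, such counts cannot be assigned to a copy, and how the authors placed such reads is not given in the sources used here.

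A second group held alternative joins within a gene. Tcf7 exon 5, of 93 bases, was skipped by a junction of 4926 reads in R2 and 4905 in R1, which took 25.3% of the reads at the exon 4 donor in R2 and 26.1% in R1. The including junctions had 14566 and 13849 reads upstream and 9590 and 8136 downstream in R2 and R1. No intron of a Tcf7 transcript in GENCODE M21 matched the skip. In Cd8a, 3047 reads in R2 and 2310 in R1 skipped exon 4, of 31 bases, as an annotated transcript of the gene does. They took 31.3% and 30.1% of the reads at the exon 3 donor, against 68.6% and 69.9% for the including join, in R2 and R1. At the exon 5 acceptor the skip held 50.6% and 49.5%, so that the skip took a larger share at the acceptor than at the donor in both entries. At the Tcf7 exon 6 acceptor the skip held 33.9% in R2 and 37.6% in R1, also more than at the donor.

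In Cfd the acceptor of the shorter exon 2 had 8170 reads in R2 and 6980 in R1, and that of the longer exon had 5793 and 5700. The shorter form held 58.4% of the donor reads in R2 and 55.0% in R1. In Lat, exon 3 was joined to the main acceptor in 81.7% of reads in R2 and 82.6% in R1, and to the one annotated in Lat-204 in 17.2% and 16.7%. Satb1 intron 10 held 58.1% of its donor reads in R2 and 53.7% in R1, with 27.0% and 30.7% going to the acceptor of Satb1-207. In Raly, an RNA-binding protein of the hnRNP family, introns of 29458 and 65720 bases in the 5′ untranslated region shared a donor, with 3864 and 2315 reads in R2 and 5293 and 3051 in R1. Intron 6 of Cd74 held 85.5% of its donor reads in R2 and 84.8% in R1, where the other acceptor belongs to an annotated form with a further exon inside this intron. Other members with under 80% at an end lay in Ly6e, a small surface protein of lymphocytes, Tbata, a protein named for its expression in thymus, brain and testis, Tbc1d10c, Pcbp2, Hdac7 and Atxn2l.

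The entries differed in one alternative far more than in the others. Over the 45 members below 90%, the SD of the lower share between R2 and R1 had a median of 0.636 percentage points. In Slc25a3, the mitochondrial phosphate carrier, it was 18.1: the member, intron 2, took 70.7% of its donor reads in R2 and 96.3% in R1. The competing acceptor, annotated in Slc25a3-206, had 918 reads in R2 and 95 in R1. The joins end at alternative forms of exon 3, and are shown because they carry this difference (chr10:90584789-90586302 and chr10:90585077-90586302 on mm9, minus strand).
Slc25a3 exon 2 to exon 3 of the member: ccgccgccgtggaagAGTACAGTTGTGAAT
Slc25a3-206 exon 2 to the other exon 3: ccgccgccgtggaagAGCAGTATAGCTGTG

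In Pkm, pyruvate kinase, whose alternative exons give the form of muscle and brain and the form of dividing cells, intron 8 held 87.6% of its donor reads in R2 and 94.6% in R1, and the competing annotated acceptor had 380 reads in R2 and 141 in R1. The members with the largest ratio of R2 to R1 were introns 2 and 1 of Actc1, cardiac alpha-actin, with 7640 and 5156 reads in R2 and 669 and 510 in R1 (log2 of 3.51 and 3.34). Intron 1 of Slc25a4, an ADP/ATP carrier abundant in muscle and heart, followed with 4061 in R2 and 1490 in R1. Actc1 stood at 574 TPM in replicate 2 and 57.7 in replicate 1. A list of 14 striated muscle genes, chosen after these values were seen, was higher in replicate 2 in 14 of 14, and summed to 1983 TPM in replicate 2 and 133 TPM in replicate 1. Tnni3, cardiac troponin I, had 898 TPM in replicate 2 and 63.7 in replicate 1, and Mb, myoglobin, had 438 and 15.1. The part of these transcripts in the Slc25a3 and Pkm values was not tested.

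**Figure D4:**
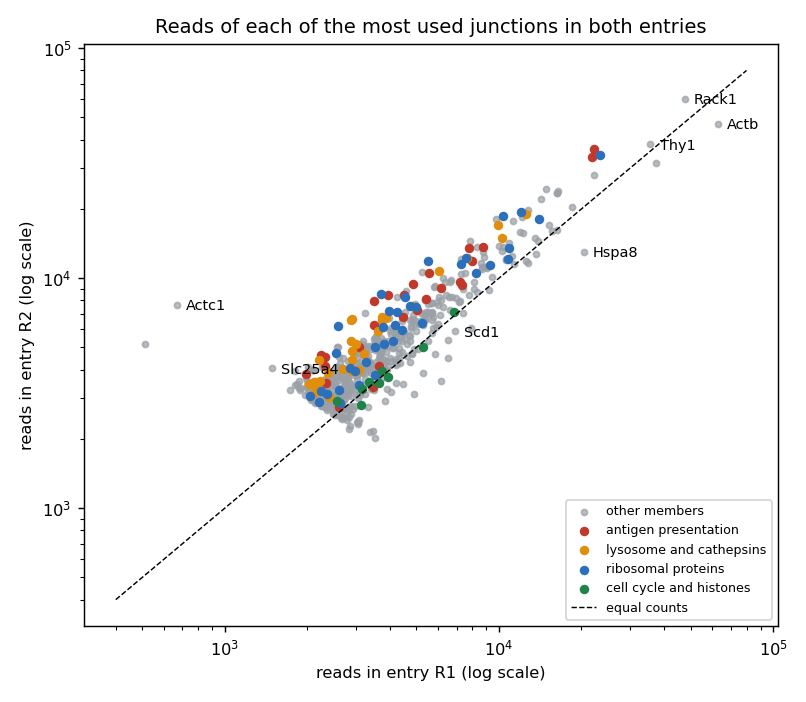
Reads of each member in entry R2 (vertical, log scale) against entry R1 (horizontal, log scale), with 4 gene classes in colour and a dashed line at equal counts. Most members lie above the line, Actc1 lies far above it, and Hspa8 and Scd1 lie below.

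Across all members R2 exceeded R1 by a median of 1.29-fold (log2 of 0.37), close to the 1.26-fold of the summed reads of the whole list and to the median log2 of 0.32 over 49442 comparison junctions of at least 100 reads. R2 was lower in 66 members and at least 2-fold higher in 15, and such junctions were not counted in the comparison set. Introns of one gene moved together: in 62 genes with at least 3 members the within-gene SD of the log2 ratio had a median of 0.15, against an SD of 0.37 over all members. Log2 counts of R2 and R1 correlated across members at r = 0.893 (Spearman 0.827), a description in which introns of a gene share their transcripts.

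The classes differed in this ratio, which was described and not tested. The median log2 of R2 over R1 was 0.71 for lysosomal proteins and cathepsins, 0.67 for antigen presentation, 0.62 for the receptor and CD3 class, 0.57 for respiratory chain genes and 0.51 for ribosomal proteins. It was 0.09 for glycolysis and metabolism, 0.05 for the cell cycle and 0.20 for transcription and chromatin. Within the receptor and CD3 class, gene medians were 0.79 for Trbc1, 0.64 for Cd247, 0.63 for Trbc2, 0.31 for Trac and 0.04 for Cd3e. All 37 ribosomal members and all 29 of the lysosomal class, which leaves out Laptm5, were higher in R2. So were 506 of the 573 members (88.3%), with R2 the deeper entry. By TPM, 7 of the 16 ribosomal hosts were lower in replicate 2. Of the fat list, Ucp1 had 124 TPM in replicate 2 and 346 in replicate 1, and Cfd had 680 and 820. Adipoq went the other way, with 48.4 and 43.9. The part of fat cells in the ratios of Fasn and Scd1, both in the glycolysis and metabolism class, was not tested. Cst3 had log2 ratios of 1.20 and 1.19 at its members, and H2-K1, a class I heavy chain, had 8442 reads in R2 and 3952 in R1. At the other end stood intron 1 of Sun2, a nuclear envelope protein, with 2016 in R2 and 3543 in R1, and intron 1 of Scd1, a fatty acid desaturase, with 3561 and 6168. Rrm2, a subunit of ribonucleotide reductase, had 2138 and 3389 in R2 and R1, and Hspa8 had 12983 and 20362. Within Laptm5, intron 2 had 16143 reads in R2 and 16219 in R1, while its other 6 introns were all higher in R2.

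**Figure D5:**
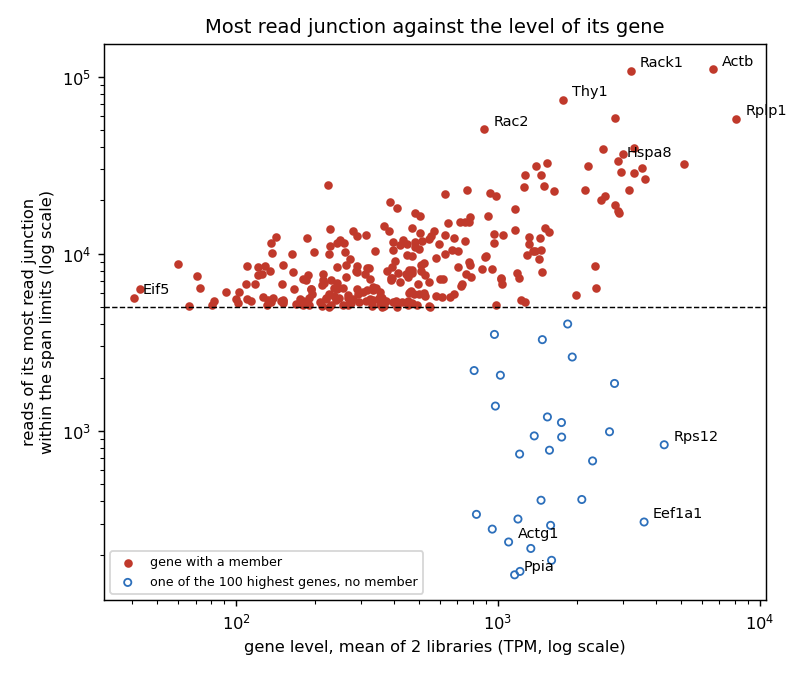
Reads of the most read junction within the span limits (vertical, log scale) against the mean level of the gene over 2 libraries (horizontal, TPM, log scale), for genes with a member (red) and for genes among the 100 highest that have none (blue, open). The dashed line marks 5000 reads, and Rps12 with 835 reads lies far below it.

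Host genes were highly expressed, as the choice of members by read count in the same libraries itself favours. Their mean TPM had a median of 410, with 427 in replicate 2 and 414 in replicate 1, against a median of 13.6 TPM over the 14360 genes of at least 1 TPM. It ran from 40.7 for Eif5, a translation initiation factor, to 8113 for Rplp1. Across 272 hosts, log2 reads of the most read member and log2 TPM correlated at r = 0.660 (Spearman 0.557), both from the same libraries. The match was loose at the top: of the 100 protein-coding genes with the highest TPM that have an intron within the span limits, 63 hosted a member and 37 did not, where the alpha-globin members count for both copies. Rps12, a small subunit protein, had 4680 TPM in replicate 2 and 3944 in replicate 1, but no matched junction above 835 reads within the span limits. Of the 37, 8 had no matched junction within those limits, and introns of 100 bases or fewer, which can be read deeply, are not counted here.

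Between the libraries, the log2 ratio of host TPM, replicate 2 over replicate 1 with a pseudocount of 0.1, had a median of -0.08, against -0.04 over all genes of at least 1 TPM. It was below 0 in 178 of 272 hosts, and the share below 0 over all genes was not counted. Among the extremes were Actc1 at 3.31 and Slc25a4 at 1.17, and Rrm2 at -1.19 and Fasn, fatty acid synthase, at -0.95. Prss16 had 801 TPM in replicate 2 and 537 in replicate 1, and its 5 members had a median log2 R2 over R1 of 0.87.

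The transcripts that carry a member held most of the TPM of their gene. For the 545 members with a carrying transcript in the table, the share had a median of 97.6%, with 97.5% in replicates 2 and 1 alike. It was at least 90% in 361 members and under 50% in 58. The lowest were the 5 members of Rpl13a, at 2.63% in replicate 2 and 3.37% in replicate 1, for which the table held 1 of the 8 to 10 carrying transcripts, so that the share counts that transcript alone. Intron 1 of Hspa8 stood at 12.98% in replicate 2 and 22.1% in replicate 1, and introns of Arpp21 and Ptprc were also low. For Cfd, the carrier of the more read acceptor had no entry in the transcript table used here.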

How the data were processed

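Thymus RNA of 2 libraries was analysed. The members and gene lists were chosen with earlier results of these data known, and the class of each host, including the lysosome and the blood, fat and immunoglobulin classes, was assigned after the hosts had been named. The deposited junction list (mm9, no header) holds whole-number read counts, and its R1 and R2 entries and the authors' reproducibility score were read from the names and values. The contigs carry a deposited level (signal) with no stated normalization. Per the file headers, the gene and transcript tables hold expected counts, TPM and the percent of a gene held by each transcript; per the text deposited with them they are on mm10 with annotation M4. No source used here names the quantifier, the aligner or the junction caller. The percent column was not used, since carrying shares were summed from TPM. Depth was 62127220 and 48566863 expected fragments over genes in replicates 2 and 1, and 21728063 and 17214608 junction reads in R2 and R1.

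Junctions were matched to GENCODE M21 by intron and exon lengths only, with a neighbouring junction of at least 10 reads, and no coordinate was converted between builds. On simulated lists of 18301 junctions from shifted genes, 97.3% were named rightly, 2.67% with a second gene and 0 wrongly, and 0 of 1875 decoys were named. The simulated junctions came from the same gene models, and the decoys lay at random places. Differences between builds were not simulated, so these values give no error rate for the deposited list. Named genes are the hosts of the 20 most read members, the extremes in span, competing share, members per gene and evenness, and up to 5 per class by reads, to which alternative joins and members with extreme entry ratios were added after their values were seen. A competing share is the member's reads over all junction reads at the same donor or acceptor. Expected counts were rounded for the edgeR and DESeq2 scalings. Intervals are 95% exact binomial and cover counting error only. No test between groups was made, since there is 1 group. The count scalings used DESeq2 1.42.0 and edgeR 4.0.16 under R 4.3.3. Tables were made with pandas 2.3.3, intervals with scipy 1.17.1, and figures with matplotlib 3.10.9, all under Python 3.11.15.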

Additional observations from a re-analysis of the deposited data

How the results depend on the processing

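Of 32 alternatives tried, 20 left the value within its interval or within 1.5 times, 12 moved it and 0 reversed it. A reversal is a change of sign, so only the exon-end difference and the log2 ratios between libraries or entries could show one. For the other values it was not possible. A minimum of 10000 reads gave 178 members with 9.09% of the junction reads and 17 members under 90% at an end, and one of 2500 reads gave 1667, 25.5% and 125. Keeping only junctions with a reproducibility value of at most 0.1 kept 573 members with 16.2% of the reads. Length alone named 95 host genes in place of 273. The evenness ratio was 14.03 in the highest transcript in place of 887. Contigs wholly inside the intron covered 99% of it in 0% of members in place of 76.4%. In CPM the median host level was 468. Leaving out one library gave a median of 414 to 427 TPM and a carrying share of 97.5% in either case. Without 15 members at which a junction joins 2 host genes, 30 members were under 90% (an alternative chosen after seeing the data), and these still include members of Tuba1b and Gm49450. The median ratio over hosts stayed below 0 under both count scalings, at -0.07 with TMM and -0.08 with DESeq2 size factors. No paired analysis was possible because the series holds a single group. Reads shared by gene copies, 2 counts per junction and the lack of an mm9 annotation limit these values.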

Other observations

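The 18 members that were not named by structure were of several kinds. In 6 the ends lay in genes described above: the joins between copies of alpha-globin (2), beta-globin, tubulin and Trbc, and the Tcf7 skip. Another shared its donor and acceptor with named introns of Uqcr10, a subunit of mitochondrial complex III, with 3564 reads in R2 and 2130 in R1. The most read of the others, on chromosome 1, had 14152 reads in R2 and 10854 in R1. The names in the list also carry flags A and C, whose meaning is not given in the sources used here. Flag A was 1 in 560 members, and the 13 at 0 are the 6 joins just named, an intron each of Cfd, Trac, Trbc1, Gm49450 and Atxn2l, and 2 unnamed junctions. Flag C was 0 in 4 members, those 2 unnamed junctions and introns of Rack1 (15868 reads in R2 and 11973 in R1) and Arpc5, an actin-nucleating subunit (6496 and 4998).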
